A study of Mus musculus with 6 samples.

Results

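Expression of 10 genes for neurotrophic factors, guidance receptors, their ligands and matrix proteins was described in sorted mouse lung epithelial cells. The 10 symbols are Nrp1, Nrp2, Sema3b, Vegfa, Gdnf, Ndnf, Nrn1, Egfl6, Tinag and Tinagl1. They were matched by symbol among the 48577 genes of each library, and all 10 had a row and passed the filter on low counts. Nrp1, Ndnf, Egfl6, Gdnf, Nrn1 and Tinag were chosen by their read counts in these libraries, which were lower in tdTomato-positive than in tdTomato-negative cells, and the other 4 are relatives or ligands of them taken for contrast. The difference between the fractions is therefore a description for these genes, with no test.

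The cells came from C57BL/6 mice carrying Miwi2tdTomato, in which the red fluorescent protein tdTomato reports Piwil4, the gene of the Piwi protein MIWI2. RNA was amplified before library preparation. Lung cells were sorted as CD45-negative (not leukocytes) and EpCAM-positive (epithelial), into tdTomato-negative and tdTomato-positive fractions, and every library of both groups carries the reporter allele. The age and sex of the mice and any further treatment are not given in the sources used here. Each of 3 mice gave 1 library per fraction, 6 in all. The labels call both fractions multiciliated cells, although no gate for cilia is named.

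Neuropilins are cell-surface co-receptors without an enzymatic domain of their own. With plexins they receive secreted class 3 semaphorins, the repulsive cues first known from growing axons, and with VEGF receptors they receive VEGF-A, the growth factor of blood vessels. GDNF is a secreted factor for neurons and kidney that acts through GFRA1 and the kinase RET. Neuritin (Nrn1) is a small protein held on the membrane by a lipid anchor, and NDNF is a secreted neurotrophic protein. EGFL6 is a secreted protein with EGF repeats, and TINAG and its relative TINAGL1 are glycoproteins of basement membranes, the sheets on which epithelia rest. In the lung, the alveolar epithelium is a known source of VEGF-A for the capillaries beside it.

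Because the 6 picked genes were low together, the 250 bases before the start site of 4 of them are shown to compare their sequence. They come from RefSeq on GRCm38.p6, which held 7 of the 10 genes, and are written 5′ to 3′ on the gene's strand with motif matches in capitals. The windows are chr8:128358823-128359072 (plus strand) for Nrp1, chrX:166585717-166585966 (minus) for Egfl6, chr15:7809798-7810047 (plus) for the upstream of 2 Gdnf starts and chr9:77045782-77046031 (minus) for Tinag. These are RefSeq start sites, and the gene spans given with the levels are GENCODE's, so they can differ. The Nrp1 window lies inside the GENCODE span, which begins further upstream, and the Gdnf window lies upstream of the GENCODE start.
Nrp1: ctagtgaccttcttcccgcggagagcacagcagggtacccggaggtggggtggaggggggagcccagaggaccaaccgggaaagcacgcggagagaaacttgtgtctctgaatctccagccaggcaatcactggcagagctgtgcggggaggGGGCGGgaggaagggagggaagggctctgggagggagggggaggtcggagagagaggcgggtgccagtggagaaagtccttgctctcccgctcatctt
Egfl6: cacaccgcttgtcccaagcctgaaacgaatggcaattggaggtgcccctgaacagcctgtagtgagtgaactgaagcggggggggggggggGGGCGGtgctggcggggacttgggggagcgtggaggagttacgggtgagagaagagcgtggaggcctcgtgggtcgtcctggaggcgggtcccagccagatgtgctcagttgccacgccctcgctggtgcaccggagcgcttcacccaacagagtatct
Gdnf: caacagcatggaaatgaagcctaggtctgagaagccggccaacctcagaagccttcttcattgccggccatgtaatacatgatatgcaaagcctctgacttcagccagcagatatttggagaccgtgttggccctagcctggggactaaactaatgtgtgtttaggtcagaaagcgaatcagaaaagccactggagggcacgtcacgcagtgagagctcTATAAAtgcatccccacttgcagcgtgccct
Tinag: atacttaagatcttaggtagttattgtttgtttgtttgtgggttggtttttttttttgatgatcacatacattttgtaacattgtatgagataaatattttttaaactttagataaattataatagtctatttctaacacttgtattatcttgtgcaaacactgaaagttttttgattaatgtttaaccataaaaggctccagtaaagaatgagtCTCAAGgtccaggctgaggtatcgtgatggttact
These windows had little in common. Nrp1 and Egfl6 were rich in G and C, at 64.4% and 64.8%, with 11 and 15 CG dinucleotides, against a median of 6 over 32851 windows of the same length. Tinag was at 28.8% with 1 CG. Motifs were searched on both strands. The GC box is spelled GGGCGG and was present in 32.7% of all windows. The TATA box is spelled TATAAA and was present in 12.4%. The core bound by NKX2-1, a lung epithelial factor, is spelled CTCAAG and was present in 13.3%, and the forkhead core, spelled TGTTTAC, in 3.17%. Each of the 4 windows held 1 match. Nrp1 and Egfl6 each held a GC box, 98 and 159 bases before the start at its first base. Gdnf held a TATA box 31 bases before the start, and Tinag held the NKX2-1 core 35 bases before it. The window of the other Gdnf start, not shown, held no match and 14 CG dinucleotides. No motif was found in all 4, and a match describes letters only. For comparison, the window of Nrp2 held 32 CG dinucleotides and 5 GC box matches, of which a pair shares a base. A window of Tinagl1 also held the NKX2-1 core, 165 bases before the start, with GC boxes, and its other window held no match. Both Vegfa windows held a GC box. The NKX2-1 core and the GC box were thus found among genes taken for contrast too.

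Libraries held 5330584 to 6326395 reads in genes, so 3 reads, the most that a count of 0 allows, correspond to 0.475 to 0.585 CPM (reads scaled to the library's total over tested genes). Intervals and floors cover counting error only. Piwil4, the reported gene, was at 29.97 to 45.6 CPM in negative cells and 95.7 to 111 CPM in positive cells, and the tdTomato row had 37, 16 and 18 reads in positive cells of mice 1, 2 and 3 and 0 in negative cells. Mouse 1's positive library lay apart along the leading principal component (37.6% of variance), at 79.4, with the other 5 between -35.2 and 7.80. Of 13175 genes tested, 76 were called lower (0.577%) and 6 higher (0.0455%) by edgeR at adjusted p under 0.05, a split of 54 lower and 22 higher when library size alone set the scale. On that scale the median of all log2 fold changes was 0.29 instead of 0.03. As a check of the labelled cell type, 9 multiciliated cell markers summed to 3248 to 3391 CPM in negative cells and 3476 to 3871 CPM in positive cells. Alveolar type 2 cells make surfactant, and their 10 markers summed to 6042 to 7380 CPM in negative cells and 549 to 1061 CPM in positive cells. Lyz2 was the highest of the 10 in every negative library, at 1689 to 3302 CPM. There Sftpc was at 1261 to 1354 CPM and Sftpb at only 9.03 to 32.6 CPM. Transcripts on that list were thus abundant in the negative fraction too, though unevenly so.

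All 6 picked genes were lower in the positive library of 3 of 3 mice, and their groups did not overlap. Among all genes tested, 18.8% were lower and 19.8% higher in 3 of 3 mice, and 9.02% were lower and 8.29% higher without overlap. Nothing is read from these counts, since this contrast chose the genes. In bulk libraries, fewer cells of a type and less RNA per cell cannot be told apart. Of the 4 genes taken for contrast, Vegfa alone was lower in 3 of 3 mice without overlap, and Nrp2, Sema3b and Tinagl1 overlapped between the groups.

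**Figure D1:**
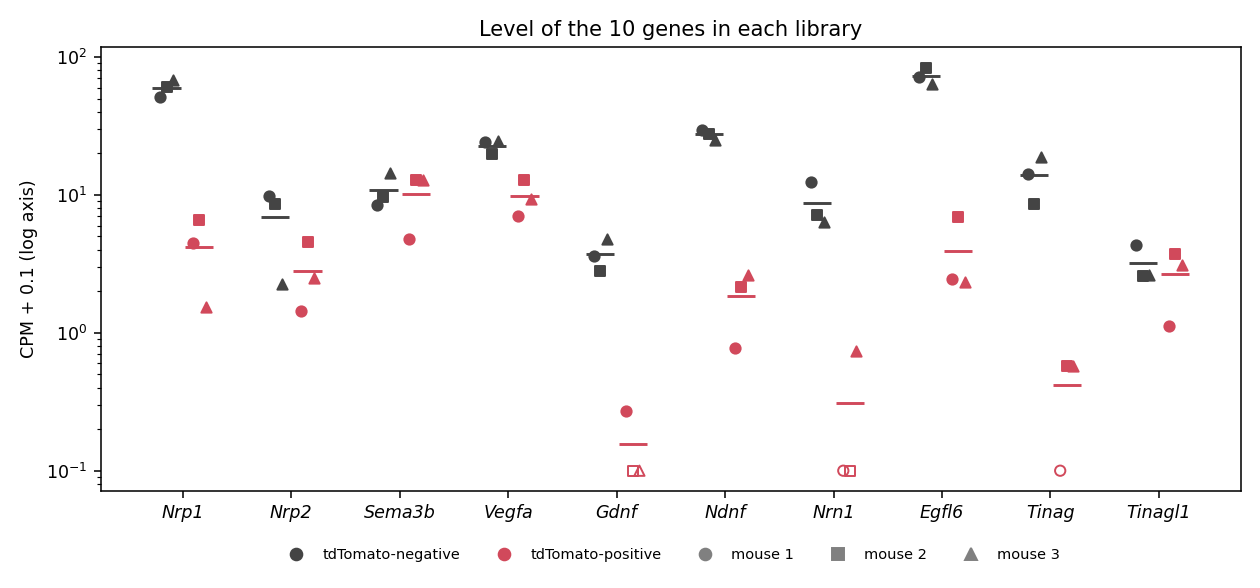
Level of each gene in each library, as CPM plus 0.1 on a log axis; dark grey marks are tdTomato-negative and red marks tdTomato-positive libraries, shapes give the mouse, bars the group mean (n = 3) and open marks libraries with no read. The red marks of Nrp1, Gdnf, Ndnf, Nrn1, Egfl6, Tinag and Vegfa all lie below the grey ones, while those of Nrp2, Sema3b and Tinagl1 overlap them.

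Nrp1 encodes neuropilin-1 (chromosome 8, 128358604 to 128503363, GRCm38, plus strand). Negative cells of mice 1, 2 and 3 gave 264, 313 and 349 reads, and their positive cells 26, 41 and 9 reads, or 51.2, 60.1 and 68.1 CPM against 4.39, 6.49 and 1.43 CPM. Every negative library was thus far above every positive one, and mouse 3 was the highest of the negative and the lowest of the positive libraries. The group means were 59.8 ± 8.42 and 4.10 ± 2.54 CPM (n = 3 per fraction, SD), 14.6-fold apart. Within mice the fold was 11.7, 9.27 and 47.6, with 95% counting intervals (exact binomial) of 7.78 to 18.2, 6.68 to 13.2 and 24.8 to 105. The interval of mouse 3 lay above those of the other mice. The fitted log2 fold change was -3.86 ± 0.419 (SE), and -3.91 with mouse 1's positive library left out. The exons of Nrp1 share 80 bases with the microRNA gene Mir1903.

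Nrp2 encodes neuropilin-2 (chromosome 1, 62703285 to 62818695, plus strand), the other neuropilin. It was at 9.70, 8.45 and 2.14 CPM for the negative fraction of mice 1, 2 and 3, and 1.35, 4.43 and 2.38 CPM for the positive fraction. The groups overlapped, and the mice did not share a direction: Nrp2 was lower in the positive library of mice 1 and 2 and slightly higher in that of mouse 3. Its fitted log2 fold change was -1.30 ± 0.638 (SE) and ranged from -1.84 to -0.49 over 19 alternative analyses.

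Per length of annotated exons, Nrp1 made up 86.5%, 89.6% and 97.5% of the neuropilin total in negative cells of mice 1, 2 and 3. Among positive cells it made up 79.7%, 63.9% and 42.1%. Nrp1 was the main neuropilin transcript in all 3 negative libraries. In the positive library of mouse 3 Nrp2 had the higher level, but from only 9 Nrp1 and 15 Nrp2 reads. No counting interval was computed for the shares, so that order is uncertain. The mean share was 91.2% ± 5.66 against 61.9% ± 18.9 (n = 3 per fraction, SD). Nrp1 was picked for its fall and Nrp2 was not, so a lower share in positive cells follows from that choice and is no separate result.

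**Figure D2:**
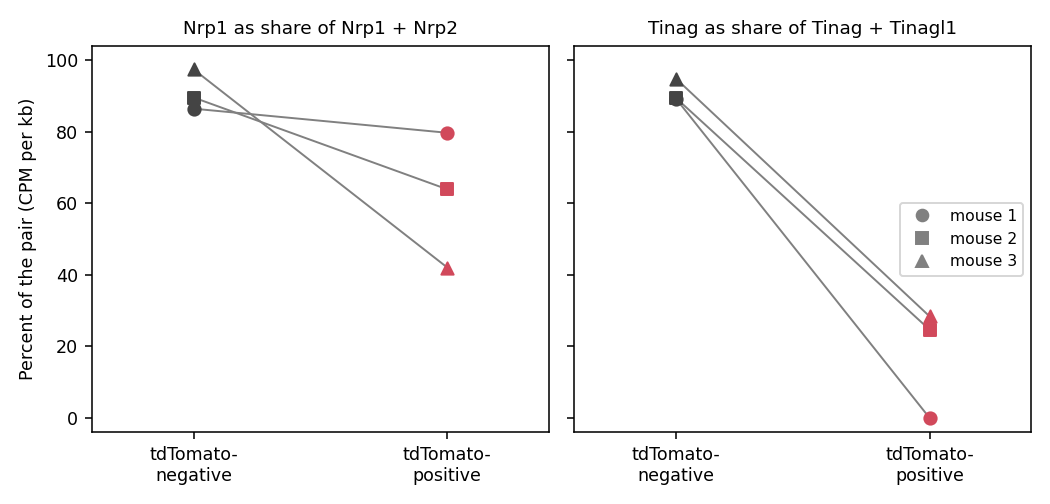
Share of Nrp1 in the sum of both neuropilins and of Tinag in the sum of Tinag and Tinagl1, in percent of CPM per kb of exon, with a line for each mouse from its negative to its positive library. Nrp1 shares go from 86.5% to 97.5% down to 42.1% to 79.7%, and Tinag shares from 89.3% to 94.9% down to 0% to 28.4%. Nrp1 and Tinag were picked for their fall.

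Of the 2 ligands, Sema3b encodes a secreted class 3 semaphorin (chromosome 9, 107597674 to 107609229, minus strand). It was at 8.34, 9.60 and 14.4 CPM for the negative fraction of mice 1, 2 and 3, and 4.73, 12.8 and 12.7 CPM for the positive fraction. The groups overlapped widely: Sema3b was lower in the positive libraries of mice 1 and 3 and higher in that of mouse 2. The fitted log2 fold change was -0.10 ± 0.43 (SE), which turned to 0.18 with library size alone and to 0.24 without the positive library of mouse 1.

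Vegfa (chromosome 17, 46016993 to 46032369, minus strand) was at 24.3, 19.6 and 24.4 CPM in negative cells of mice 1, 2 and 3, against 6.92, 12.8 and 9.21 CPM in the positive ones. The highest positive library, that of mouse 2, stayed below the lowest negative one. The means were 22.7 ± 2.73 and 9.65 ± 2.97 CPM (n = 3 per fraction, SD), 2.36-fold apart, with within-mouse folds of 3.50, 1.53 and 2.65. The fitted log2 difference was -1.23 ± 0.314 (SE) and -1.04 without the positive library of mouse 1.

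Of the neurotrophic genes, Ndnf encodes a secreted protein (chromosome 6, 65671590 to 65712326, plus strand). It was at 29.5, 27.7 and 25.2 CPM in negative cells of mice 1, 2 and 3, against 0.676, 2.06 and 2.54 CPM in the positive ones. The negative libraries were close together, while the positive library of mouse 1, with 4 reads, was the lowest. The means were 27.4 ± 2.18 and 1.76 ± 0.968 CPM (n = 3 per fraction, SD), 15.6-fold apart. The fold was 43.7 in mouse 1, 13.4 in mouse 2 and 9.90 in mouse 3, with counting intervals of 16.7 to 162, 7.62 to 25.9 and 5.87 to 17.8. The log2 fold change was -3.94 ± 0.428 (SE), and -3.56 without the positive library of mouse 1.

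Nrn1 (chromosome 13, 36725361 to 36735131, minus strand) gave 64, 37 and 32 reads from negative cells but 0, 0 and 4 reads from positive cells. These are 12.4, 7.11 and 6.24 CPM against 0.635 CPM in the positive library of mouse 3, the only positive library with a read. Nrn1 was at least 24.5-fold lower in mouse 1 and at least 14.97-fold lower in mouse 2, against 3 reads in the positive library. In mouse 3 the fold was 9.82, with a counting interval of 3.48 to 38.2. Its exons share 501 bases with Fars2 on the opposite strand, and without a stated strand setting reads of the genes cannot be told apart there.

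Gdnf (chromosome 15, 7810846 to 7837575, plus strand) was, per length, the lowest of the picked genes, with 18, 14 and 24 reads from negative cells and 1, 0 and 0 reads from positive cells. The negative libraries were at 3.49, 2.69 and 4.68 CPM, all above the floor of 3 reads, and the positive libraries lay below it. From reads summed over each group, 56 against 1, the level was 67.0-fold lower, with a counting interval of 11.5 to 2694. The single positive read makes that size imprecise.

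Egfl6 was, per length, the highest matrix gene of the 10 (chromosome X, 166523007 to 166585720, minus strand). Negative cells gave 372, 437 and 327 reads, and positive cells 14, 43 and 14 reads. That is 72.2, 83.9 and 63.8 CPM against 2.36, 6.80 and 2.22 CPM, with mouse 2 the highest in both fractions. The means of 73.3 ± 10.1 and 3.80 ± 2.60 CPM (n = 3 per fraction, SD) were 19.3-fold apart, and the folds within mice were 30.5, 12.3 and 28.7. Its log2 fold change was -4.26 ± 0.396 (SE), -4.01 when mouse 1's positive library was left out and -4.98 when that of mouse 2 was.

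Tinag (chromosome 9, 76951693 to 77045794, minus strand) gave 73, 44 and 96 reads from negative cells and 0, 3 and 3 reads from positive cells. The level was 14.2, 8.45 and 18.7 CPM in negative cells of mice 1, 2 and 3, against at most 0.476 CPM in a positive one. Tinag was at least 27.95-fold lower in mouse 1. In mice 2 and 3 it was 17.8-fold and 39.3-fold lower, with counting intervals of 5.71 to 89.6 and 13.05 to 194.

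Tinagl1, its relative (chromosome 4, 130164454 to 130175122, minus strand), was at 4.27, 2.497 and 2.53 CPM for the negative fraction of mice 1, 2 and 3, and 1.01, 3.64 and 3.02 CPM for the positive fraction. The groups overlapped, and Tinagl1 was lower in the positive library of mouse 1 and higher in those of mice 2 and 3. The fitted log2 difference was -0.27 ± 0.613 (SE), and 0.10 with mouse 1's positive library left out. Per exon length, Tinag was 89.3%, 89.5% and 94.9% of the pair in negative cells, and 0%, 24.7% and 28.4% in positive cells. The higher level of the pair was thus that of Tinag in all negative and of Tinagl1 in all positive libraries, as the plot of pair shares shows. The positive shares rest on few reads, 0, 3 and 3 of Tinag against 6, 23 and 19 of Tinagl1, without a counting interval. Tinag was picked for its fall, so its lower share follows from that choice.

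The order of the 10 genes by level per length is described for each fraction. Because 6 of them were picked for being lower in positive cells, their lower ranks and percentiles there follow from that choice. In the negative libraries Egfl6 was first at 27.1 ± 3.75 CPM per kb of exon (SD, n = 3), above the range of every other gene. Tinag, Nrp1, Vegfa, Nrn1, Ndnf and Sema3b followed, from 7.94 ± 2.97 to 2.26 ± 0.673 CPM per kb, and each overlapped the next. Gdnf, Tinagl1 and Nrp2 were lowest, at 0.985 ± 0.273 to 0.571 ± 0.342 CPM per kb, below the range of Sema3b. In the positive libraries Vegfa at 2.25 ± 0.693 and Sema3b at 2.11 ± 0.971 CPM per kb were first with Egfl6 next at 1.404 ± 0.963, but every gene overlapped the next in the order. Among 12742 tested genes with a length, the mean level of Egfl6 per length was at the 92.4th percentile in the negative and the 20.9th in the positive libraries. Nrp1 went from the 63.0th to the 4.17th and Tinag from the 70.1th to the 1.04th percentile, while Sema3b stayed near the 32.4th and 30.8th.

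Summed markers of alveolar type 2 cells were lower in the positive library of each mouse. Of the 10 markers, all were tested and 6 fell (edgeR adjusted p under 0.05), where 0.577% of all genes tested were called lower. Their summed level in the positive library was 11.9%, 17.6% and 7.48% of that in the negative library of mice 1, 2 and 3. For Nrp1 the same percentages were 8.57%, 10.8% and 2.10%, also highest in mouse 2 and lowest in mouse 3. Egfl6 kept 3.28%, 8.10% and 3.49%, again highest in mouse 2, whereas Ndnf kept 2.29%, 7.44% and 10.1%, highest in mouse 3. Tinag kept 0%, 5.62% and 2.545%. Gdnf kept 4.84% in mouse 1 and 0% in mice 2 and 3, and Nrn1 kept 10.2% in mouse 3 and 0% in mice 1 and 2. These last percentages rest on few positive reads. Of the picked genes, only Nrp1 had the same order of mice as the marker sum, but these orders are within counting error. The counting intervals of Nrp1 overlapped between mice 1 and 2. Egfl6 departed from the marker order only between mice 1 and 3, with 14 positive reads in each. The order therefore sets no picked gene apart. Vegfa kept 28.6%, 65.4% and 37.8%, more than the marker sum in each mouse. Single markers ranged widely: over the group means Lamp3 kept 4.33%, Sftpc, the gene of surfactant protein C, 8.62%, and Abca3, a lipid transporter of the surfactant store, 70.6%. The part of alveolar type 2 cells in these differences was not tested.

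**Figure D3:**
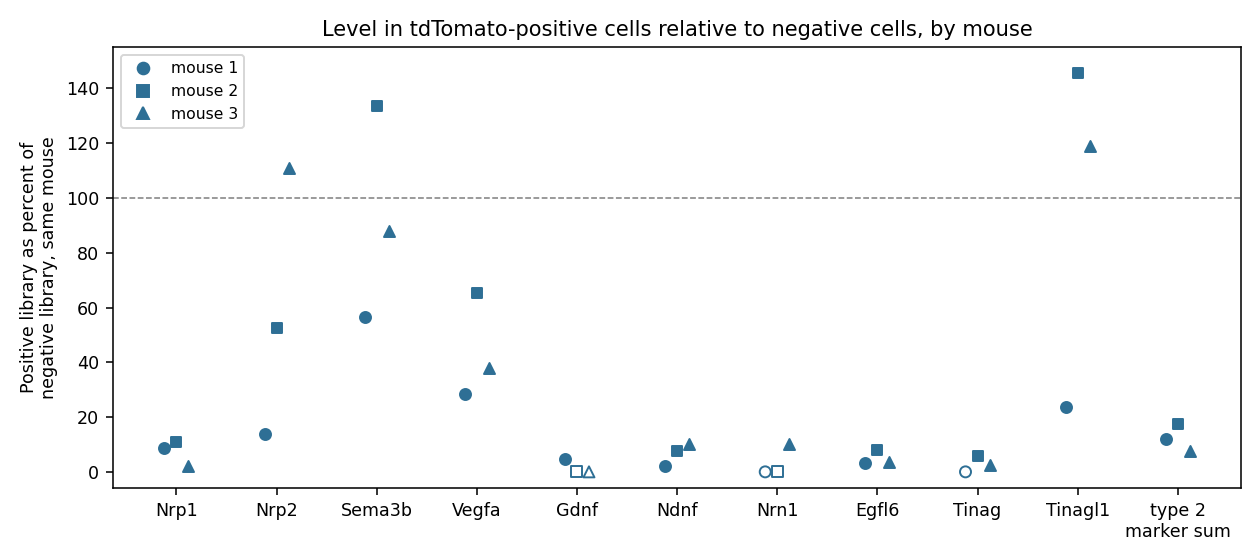
Level in the tdTomato-positive library as percent of the tdTomato-negative library of the same mouse, for each gene and for the sum of 10 alveolar type 2 markers; shapes give the mouse, open marks positive libraries with no read, and the dashed line equal levels. The 6 picked genes lie at 0% to 10.8%, the marker sum at 7.48% to 17.6%, and Sema3b, Tinagl1 and Nrp2 on both sides of the line.

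Summed basal, leukocyte, mesenchymal and mesothelial markers were also lower in the positive library of 3 of 3 mice. Basal cell markers, 6 genes, summed to 10.1 to 17.9 CPM in negative cells against 1.01 to 2.21 CPM in positive cells, where Trp63, their defining transcription factor, had no read. The 8 leukocyte markers summed to 178 to 1276 against 33.3 to 208 CPM. Lyz1, which can share reads with Lyz2, was the highest of them in every library, but not most of the sum in the positive libraries of mice 1 and 3. Endothelial markers, 8 genes, were near the floor at 7.49 to 7.80 against 3.33 to 9.12 CPM, with Cldn5 at 0 in all 6 libraries. Mesenchymal markers (8 genes) summed to 17.4 to 64.4 against 1.59 to 32.9 CPM with Tcf21 at 0 throughout, and mesothelial markers (5 genes) to 6.82 to 42.1 against 4.45 to 22.8 CPM. Glial markers (5 genes) summed to 9.16 to 12.9 against 6.67 to 14.0 CPM with Cdh19 at 0 throughout. Alveolar type 1 markers (7 genes, Pdpn at 0 throughout) summed to 175 to 237 against 163 to 246 CPM, most of it Hopx and Clic5. Of these 7, Ager, Aqp5, Rtkn2 and Akap5 were lower in the positive library of 3 of 3 mice. Ager, a receptor on type 1 cells, was at 6.72 to 11.1 against 1.43 to 2.20 CPM (edgeR adjusted p = 0.0575) and fell with the mouse as a replicate block (0.0135). The sum of 6 club cell markers was higher in the positive library of 3 of 3 mice, at 3208 to 6324 against 6233 to 19824 CPM. None of the 6 was called by edgeR without the block (adjusted p = 0.223 to 0.603, 1 at unadjusted p under 0.05), and 5 rose with it. Among multiciliated markers none of 8 tested was called by edgeR without the block (3 at unadjusted p under 0.05), and Foxj1, Tppp3 and Cfap126 rose with it. Of all genes, 1.36% were called higher with the block. The part of these cell types in the levels of the 10 genes was not tested.

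For the 6 picked genes, those with the most similar pattern over the 6 libraries were found among 11182 candidates. The measure was the distance between centred log2 CPM values. Because the 6 were picked for their fall in these libraries, neighbours that also fall follow from that choice and are no separate result. The nearest to Nrp1 were Scd1, a stearoyl-CoA desaturase (distance 0.757), and Slc34a2, a phosphate transporter on the type 2 marker list (0.823). Those nearest to Egfl6 were Scd1 (0.715) and Lrp2, the endocytic receptor megalin (0.854). For Ndnf they were Hc, complement C5 (0.872), and Lpcat1, a surfactant lipid enzyme (0.936). Gdnf lay nearest to Lyz2, a lysozyme (0.616), and Mbl1, a mannose-binding lectin (0.701). Tinag was nearest to Tex15 (1.10) and Ndnf (1.16), and Nrn1 to Ndnf (1.20) and Nkd1, an inhibitor of Wnt signalling (1.4001). Of these 12 pairings, 6 were the same with a prior count of 0.5 in place of 2, so they depend on how low counts are treated.

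Most other genes of the same pathways were not called. On 9 lists of ligands, receptors and matrix genes, 157 genes were in the files and 83 were tested, with 7 of the rest without a read in any library. Of the 83, 2 fell, Sparc and Itga9, and none rose (2.41% called, against 0.622% of all genes tested). At unadjusted p under 0.05, 12 were higher and 10 lower, where 5.53% of all genes were higher and 5.16% lower. DESeq2 called 5 lower and 1 higher, against 1.43% and 0.425% of all genes. With limma-voom 3 were lower and none higher, against 0.554% and 0.038% of all genes. With the mouse as a replicate block 6 fell and 4 rose (12.05% called), where 3.15% of all genes were called, 1.79% lower and 1.36% higher. The median log2 fold change of the 83 genes was 0.13 against 0.03 for all genes, while their mean was -0.14. Median and mean also differed in sign, median above 0 and mean below, for the plexin, VEGF, netrin, basement membrane and integrin lists.

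**Figure D4:**
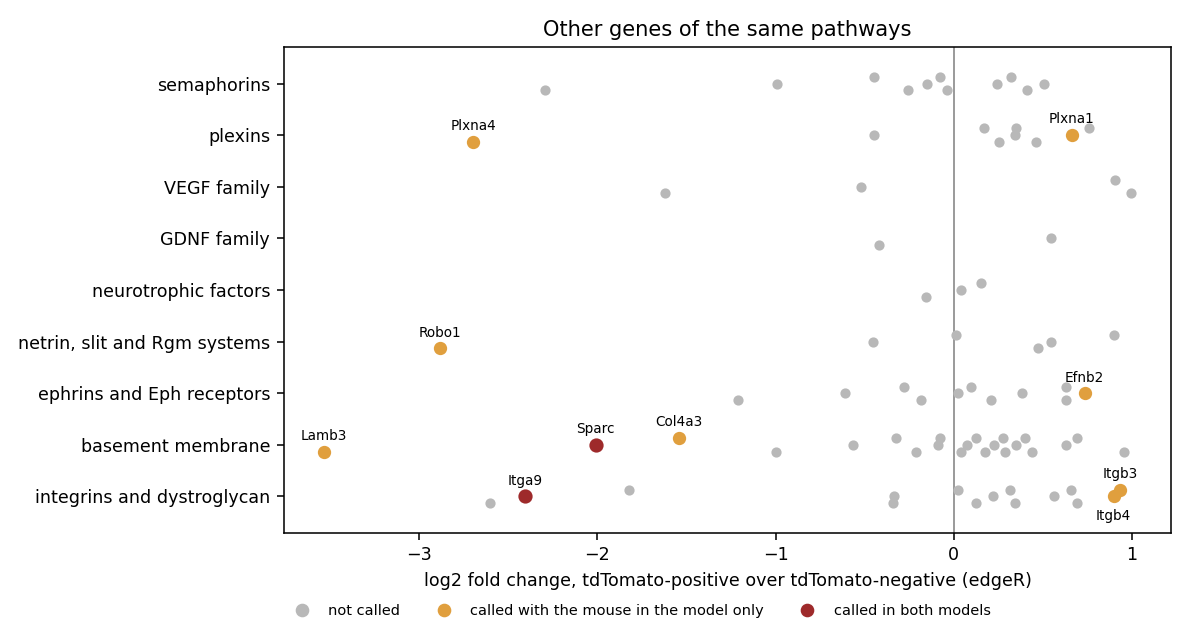
Log2 fold change (tdTomato-positive over tdTomato-negative, edgeR) of each tested gene on the 9 pathway lists, without the 10 genes described above; red marks passed with and without the mouse in the model, orange marks only with it, and grey marks in neither. Sparc and Itga9 are the 2 red marks, and most of the grey marks lie to the right of -1.

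Sparc encodes a collagen-binding glycoprotein of the matrix. It was at 27.2, 29.8 and 23.8 CPM for the negative fraction of mice 1, 2 and 3, and 8.78, 8.23 and 3.02 CPM for the positive fraction, without overlap. It fell by 2.01 on the log2 scale (SE 0.385, lower in 3 of 3 mice, with edgeR's adjusted p at 0.0445). Itga9, an integrin subunit that binds tenascin, was at 40.9, 35.9 and 55.4 CPM for the negative fraction of mice 1, 2 and 3, and 3.55, 7.91 and 13.3 CPM for the positive fraction, also without overlap. It fell by 2.41 (SE 0.409, lower in 3 of 3 mice, with edgeR's adjusted p at 0.0254). With library size alone neither passed (edgeR adjusted p = 0.0648 and 0.0507), and both calls were lost without any 1 negative library, with mouse 2's positive library left out and, with no block, without any 1 mouse (edgeR adjusted p = 0.0602 to 0.338). Sparc also lost its call without the positive library of mouse 3 (edgeR adjusted p = 0.0814), with the stricter filter (0.0506) and, with the block, without mouse 3 (0.137).

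Among the receptors that partner neuropilins, all 9 plexins were tested and none was called (edgeR; 2 higher and 1 lower at unadjusted p under 0.05, and Plxna4 lower by DESeq2 and limma-voom). With the replicate block Plxna4 fell and Plxna1 rose. Plxna4 was at 21.1 ± 4.33 against 3.25 ± 2.93 CPM (n = 3 per fraction, SD), a log2 difference of -2.70 with edgeR adjusted p = 0.0588, or 0.00137 when blocked. Plxna1 was at 108 ± 16.7 against 171 ± 33.0 CPM (n = 3 per fraction, SD, with edgeR's adjusted p at 0.22, and 0.0483 with the block), and higher in 3 of 3 mice. Plexin levels thus went in both directions while Nrp1 was low in every positive library.

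Besides Sema3b, 11 semaphorins were tested and none was called (edgeR, with or without the block, DESeq2 and limma-voom; 1 higher and 1 lower at unadjusted p under 0.05). Sema5a was at 5.62 ± 3.31 against 1.13 ± 0.293 CPM (n = 3 per fraction, SD, with edgeR's adjusted p at 0.187). Sema6a, a membrane semaphorin, was at 92.3 ± 9.66 against 122.9 ± 19.5 CPM (n = 3 per fraction, SD, with edgeR's adjusted p at 0.45). In the VEGF family none of 4 tested genes was called by any of these tools, and 2 were higher at unadjusted p under 0.05. Vegfb was at 4.91 ± 0.124 against 9.23 ± 2.71 CPM and Kdr, the main VEGF-A receptor, at 5.93 ± 1.02 against 11.9 ± 6.51 CPM (n = 3 per fraction, SD, with edgeR's adjusted p at 0.439 and 0.452). Both were higher in the positive library of 3 of 3 mice, as were 19.8% of all genes tested. The other 2 tested genes of the list had a log2 fold change below 0. Of these, Flt1 was lower in 3 of 3 mice, at 3.80 ± 2.39 against 1.21 ± 1.83 CPM (n = 3 per fraction, SD, with edgeR's adjusted p at 0.615). The family thus had no shared direction.

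Neither of the tested GDNF receptor genes was called. Gfra1, the GDNF-binding receptor, was at 72.8, 70.5 and 73.7 CPM for the negative fraction of mice 1, 2 and 3, and 104.2, 114 and 98.3 CPM for the positive fraction. The groups did not overlap, but the difference of 0.54 on the log2 scale did not pass (edgeR adjusted p = 0.246, and 0.0945 with the block). Ret, its signalling kinase, was low at 8.13 ± 2.01 against 6.06 ± 3.997 CPM (n = 3 per fraction, SD, with edgeR's adjusted p at 0.823). These 2 were the tested genes of 11 on the list, and neither was called by DESeq2 or limma-voom. Of 18 other neurotrophic genes 3 were tested, and none was called by any tool or at unadjusted p under 0.05. Among them Manf, a factor of the endoplasmic reticulum, was at 23.9 ± 3.40 against 21.5 ± 11.03 CPM and Ptn, pleiotrophin, at 10.3 ± 3.12 against 11.4 ± 6.14 CPM (n = 3 per fraction, SD, with edgeR's adjusted p at 0.904 and 0.925).

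On the netrin, slit and Rgm list 6 of 21 genes were tested and none was called (edgeR; 1 higher and 2 lower at unadjusted p under 0.05). With the block Robo1, a slit receptor, fell, from 6.06 ± 1.44 to 0.799 ± 0.816 CPM (n = 3 per fraction, SD, with edgeR's adjusted p at 0.127 without and 0.017 with the block), and DESeq2 called it too. Of 11 tested ephrins and Eph receptors none was called (edgeR, DESeq2 and limma-voom; 1 higher at unadjusted p under 0.05). With the block Efnb2, a membrane-bound ephrin, rose, from 114 ± 32.8 to 189 ± 46.3 CPM (n = 3 per fraction, SD, with edgeR's adjusted p at 0.311 without and 0.00856 with the block).

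Among 22 tested basement membrane genes Sparc was the called member, and 3 fell with the block. The other 2 were Lamb3, a chain of the laminin under epithelia, at 5.29 ± 1.72 against 0.443 ± 0.494 CPM, and Col4a3, a type IV collagen chain, at 12.9 ± 1.32 against 4.44 ± 2.91 CPM (n = 3 per fraction, SD). Their edgeR adjusted p was 0.0758 and 0.245, and 0.0223 and 0.0361 with the block, and DESeq2 called Lamb3 as well. Among 15 tested integrin and dystroglycan genes Itga9 fell, and with the block Itgb4 and Itgb3 rose. Itgb4, the laminin-binding integrin chain of hemidesmosomes, was at 93.1 ± 14.8 against 173 ± 26.3 CPM, and Itgb3 at 24.1 ± 4.59 against 46.1 ± 9.32 CPM (n = 3 per fraction, SD). Without the block their edgeR adjusted p was 0.0662 and 0.178, and with it 0.00684 and 0.0353, and DESeq2 called Itgb4 as well. The laminin chain and the laminin-binding integrin chain thus went in opposite directions with the block. With the block, leaving out mouse 1, 2 or 3 gave 13, 7 and 1 called pathway genes.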

How the data were processed

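The 6 files hold raw read counts per gene symbol, deposited by the authors, 1 library per file. Tools named in the submitters' processing notes are STAR 2.4.2a and cutadapt 1.7.1, and, with no version, HTSeq, FastQC and DESeq2; the builds are GRCm38.p4 and mm10. Whether HTSeq used strand is not given in the sources used here. Summary rows of HTSeq were left out; reads in no gene were 41.0% to 49.4% of each file.

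CPM with TMM factors, log2 fold changes, SE and two-sided quasi-likelihood tests came from edgeR 4.0.16 in R 4.3.3, over 13175 genes kept by filterByExpr (count minimum 10), with Benjamini-Hochberg adjustment. With 3 libraries per fraction, the p-values set each difference against the variation between libraries, estimated with information shared across genes. The main model leaves out the mouse, so its error is not the spread of the differences within mice. Alternatives were library size alone, RLE factors, no filter, at least 1 CPM in 3 libraries, DESeq2 1.42.0, limma-voom (limma 3.58.1), the mouse as a replicate block, and leaving out each library or mouse. The labels name the same mouse for 1 negative and 1 positive library, so these are paired; deviations from the group means correlated at 0.263, 0.254 and 0.346 within mice. Both models were tested on simulated data.

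The 10 genes and the pathway and marker lists were chosen with earlier results of these data known. Named list genes were those called with or without the block, up to 4 per list by smallest p, or the 2 with the smallest p where none was called; of markers the first 2 per list, and others, including those without a read, were chosen after their values were seen. The result of 1 marker list is not reported here. Lengths and positions come from GENCODE M21 on GRCm38.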

Additional observations from a re-analysis of the deposited data

How the results depend on the processing

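All 6 picked genes and Vegfa and Nrp2 had a log2 fold change below 0 in each of 19 alternative analyses. Tinagl1 was below 0 in 15 (-0.84 to 0.38) and Sema3b in 14 (-0.48 to 0.24). The fitted sizes for Gdnf (-7.42 to -4.90) and Nrn1 (-8.79 to -4.32) depend on 1 positive library each, since the others have no read. The number of genes called was 82 of 13175. It was 413 with no expression filter, 245 with DESeq2 and 415 with the replicate block. Leaving out 1 library gave 34 to 113. Leaving out mouse 1, 2 or 3 gave 22, 30 and 23 without the block and 633, 380 and 59 with it. On the pathway lists the 2 calls became 0 with library size alone (28 at unadjusted p under 0.05, edgeR), 8 with no expression filter, 1 with the stricter filter, 6 with DESeq2 and 10 with the replicate block. Leaving out 1 library or mouse gave 0 to 6 without the block, with 14 to 26 at unadjusted p under 0.05, and leaving out mouse 1, 2 or 3 gave 13, 7 and 1 with it. The cause was not tested. Depth limits Gdnf, Nrn1 and Tinag, whose positive libraries hold 0 to 4 reads.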
